A study of Mus musculus with 121 samples.

Results

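Cirbp (ENSMUSG00000045193) and Rbm3 (ENSMUSG00000031167), the cold-inducible RNA-binding proteins, were followed by their gene symbols through every library of the series, and they are 2 of the 31053 genes listed in the files. The libraries came from an immortalized line of mouse ear fibroblasts that carries Per2::Luc, a fusion of the clock protein PER2 with luciferase. In a microfluidic device held at 37 °C the cells received 3 daily cycles of medium with 12 h phases. Under HL a medium with 25 mM glucose and insulin came first and a medium with 2 mM glucose second. The poor medium came first under LH, and under HH each change brought fresh rich medium. Medium with 1% serum was common to the 3 treatments, as were the cell line and the 12 h without further changes before sampling. RNA was then collected 6 times at intervals of 4 h, called 0 h to 20 h here from their order. The clock hours in the titles differ from this order, being 20, 12, 4, 8, 12 and 16 for HL and HH and 20, 12, 16, 20, 12 and 16 for LH, and were not used. HL gave 21 libraries, LH 22 and HH 19, 62 in total, and each treatment had 2 to 4 libraries at each collection. All cells descend from 1 line, and the study describes its replicates as biological. The labels do not tie single libraries to separate cultures, so the p-values measure the spread between these libraries, which may be technical in part.

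Cirbp and Rbm3 are small proteins with 1 RNA recognition motif and a glycine-rich tail. Their transcripts and proteins are known to accumulate when mammalian cells are mildly cooled and to fall when cells are warmed, in the opposite direction to heat shock genes. In tissues of mammals Cirbp mRNA is known to follow the daily rhythm of body temperature, and CIRBP protein binds the Clock transcript and influences its polyadenylation. RBM3 is best known as a binder of mRNA and ribosomes that supports translation in the cold. Both are also known to respond to stresses other than cold.

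In the GENCODE M21 annotation (GRCm38), Cirbp lies at chr10:80165985-80172786 on the forward strand with 7 annotated transcripts, and Rbm3 at chrX:8138975-8145880 on the reverse strand with 11. The first 452 bases of Rbm3 are overlapped by the antisense gene Rbm3os, which had a mean of 0.255 CPM (counts scaled to a common library total of 1000000). Reads of Rbm3 and Rbm3os cannot be told apart in the overlap, because the use of strand in counting is not given in the sources used here. The overlap lies at the starts of both genes, whereas the reads of these libraries come from the ends of transcripts. The gene 1600002K03Rik begins within 2 kb of the end of Cirbp on the same strand and had a mean of 8.16 CPM.

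The Cirbp promoter is shown because it holds the letters of a reported mild cold response element. The window covers 250 bases before and 50 after an annotated RefSeq start (chr10:80167589-80167888, GRCm38.p6, forward strand). Capitals mark that element (TCCCCGCC), the GC box (GGGCGG) and the CCAAT box (CCAAT), each read on both strands, so that CCGCCC and ATTGG are matches on the reverse strand.
Cirbp promoter: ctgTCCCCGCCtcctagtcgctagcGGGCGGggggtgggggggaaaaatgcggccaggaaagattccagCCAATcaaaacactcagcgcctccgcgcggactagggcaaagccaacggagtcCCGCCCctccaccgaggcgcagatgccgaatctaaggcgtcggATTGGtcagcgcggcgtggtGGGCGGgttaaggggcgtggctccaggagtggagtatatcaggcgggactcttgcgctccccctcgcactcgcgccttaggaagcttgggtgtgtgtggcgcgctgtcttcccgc
The mild cold response element occurred 1 time, the GC box 3 times and the CCAAT box 2 times. Of 32851 promoter windows of the same length, 5.38% held the first, 35.7% the second and 37.4% the third, on either strand. The letters of an E-box (CACGTG), held by 7.15% of windows, and of a heat shock element (GAANNTTC), held by 7.86%, were not in this window. A second annotated Cirbp start (window chr10:80167921-80168220) held 4 GC boxes and none of the other 4 motifs.

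The identity of some libraries is uncertain. The read summary of the study, which is keyed by library number, disagrees with the sample titles for 40 libraries (all of LH, and HL after the first collection) or omits their numbers. Most libraries titled HL are LH by number, and most titled LH are HL. Values are therefore given by the titles of the samples and again by library number, which leaves 57 libraries, 19 for each treatment. HH is the same in both. Library totals were 104912 to 11619095 counts (median 5825881), and every library but the lowest, LH collection 2 replicate 2 by title, had at least 2136819. In that library Rbm3 had 0 counts, which allows a level of up to 28.6 CPM by a limit of 3 counts, and Cirbp had 7 counts. Markers of fibroblasts were present, with 12 of 12 above a mean of 1 CPM and a summed level of 19100 to 44400 CPM. Keratinocyte markers summed to 0.721 to 7.96 CPM, skeletal muscle markers to 0.0 to 1.95 and leukocyte markers to 5.3 to 30.7. Chondrocyte markers summed to 294.0 to 1130.0 CPM and endothelial markers to a lowest sum of 22.8 and a median of 181.0, mostly from 1 gene of each list, Sox9 and Kdr.

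Both genes were measured in every library of ordinary depth. Over the 61 libraries without the shallow one, Cirbp had 20 to 517 counts and Rbm3 48 to 410. The level of Cirbp ran from 4.62 to 67.8 CPM, a 14.7-fold range, and that of Rbm3 from 8.32 to 56.1 CPM, a 6.75-fold range. This spread is wider than counting gives, since the coefficient of variation between libraries was 36.2% for Cirbp against 6.5% from counting at the median library, and 30.2% against 7.37% for Rbm3. Of the 59 libraries with 2 runs, 55 had at least 1000000 counts in each run. In these 55 the log2 ratio of run 2 to run 1 had an SD of 0.29 for Cirbp, where counting gives 0.23 and the libraries themselves had an SD of 0.75. For Rbm3 these values were 0.25, 0.22 and 0.51. The ratio lay within 2 counting errors of 0 in 49 libraries for Cirbp and 48 for Rbm3. In the other 4 libraries a run was too shallow for this comparison, and their runs could lie far apart, as in LH collection 2 replicate 4 by title, where Rbm3 had 21.6 CPM in run 1 and 198.6 in run 2.

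The first comparison asked whether the order of the media changed the level of either gene. By titles, Cirbp had 37.4 ± 14.9 CPM in HL (SD, n = 21), 39.6 ± 16.3 in LH (n = 22) and 41.0 ± 11.6 in HH (n = 19). The lowest, median and highest Cirbp levels were 7.69, 42.0 and 61.1 CPM in HL, 4.62, 43.5 and 66.7 in LH, and 18.7, 42.9 and 67.8 in HH. The 3 treatments overlapped almost completely. Rbm3 had 32.1 ± 11.4 CPM in HL (8.32, 31.1 and 52.6), 27.4 ± 8.78 in LH (0.0, 28.3 and 40.1) and 36.9 ± 9.59 in HH (17.8, 35.2 and 56.1). Its order was HH, HL and LH, with overlapping ranges.

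Neither gene passed the rule for a change in level, an unadjusted p of 0.01 over the treatments and 0.05 in the comparison, in edgeR's quasi-likelihood test with collection as a term. The thresholds are those of the study, which applied an analysis of variance and a multiple comparison test to HH against HL and LH against HL. The edgeR test and the comparison of LH with HH were added here. Rbm3 came near it, with p = 0.0113 over the treatments and a log2 difference of -0.36 (SE 0.118) in LH against HH, where edgeR gave p = 0.00325 and 0.723 after Benjamini-Hochberg adjustment over all genes. Of all genes tested, 0.91% were called in LH against HH. Rbm3 passed the rule in this comparison without replicate 2, 3 or 4 of HL (-0.36 to -0.38) or replicate 4 of HH (-0.43). For LH against HL the log2 difference of Rbm3 was -0.24 (SE 0.116, edgeR p = 0.0449) and for HH against HL 0.13 (SE 0.117, edgeR p = 0.29), where 1.16% and 1.2% of genes were called. The former passed without replicate 2 or 3 of HL (-0.29 and -0.30) or replicate 4 of HH (-0.23). The log2 differences of Cirbp were -0.06, 0.09 and -0.15 for LH against HL, HH against HL and LH against HH, each below its SE of 0.174 to 0.179.

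The order of Rbm3 between HL and LH turned with the assignment of libraries, which exchanges these treatments for most of their libraries. By library number Rbm3 had 30.9 ± 7.23 CPM in HL (23.3, 29.0 and 52.6) and 32.6 ± 10.0 in LH (12.7, 32.9 and 46.6, n = 19 each). The log2 difference was 0.13 for LH against HL (SE 0.103), 0.24 for HH against HL (SE 0.103, edgeR p = 0.0217) and -0.11 for LH against HH (SE 0.103). In these comparisons 1.34%, 0.568% and 1.63% of all genes were called, and Rbm3 was not, with edgeR p = 0.0699 over the treatments. HH was the highest treatment for Rbm3 in both assignments. Cirbp by number had 40.2 ± 14.5 CPM in HL and 38.9 ± 15.1 in LH, and its log2 differences lay between -0.01 and 0.04 with SEs of 0.172 to 0.174.

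**Figure D1:**
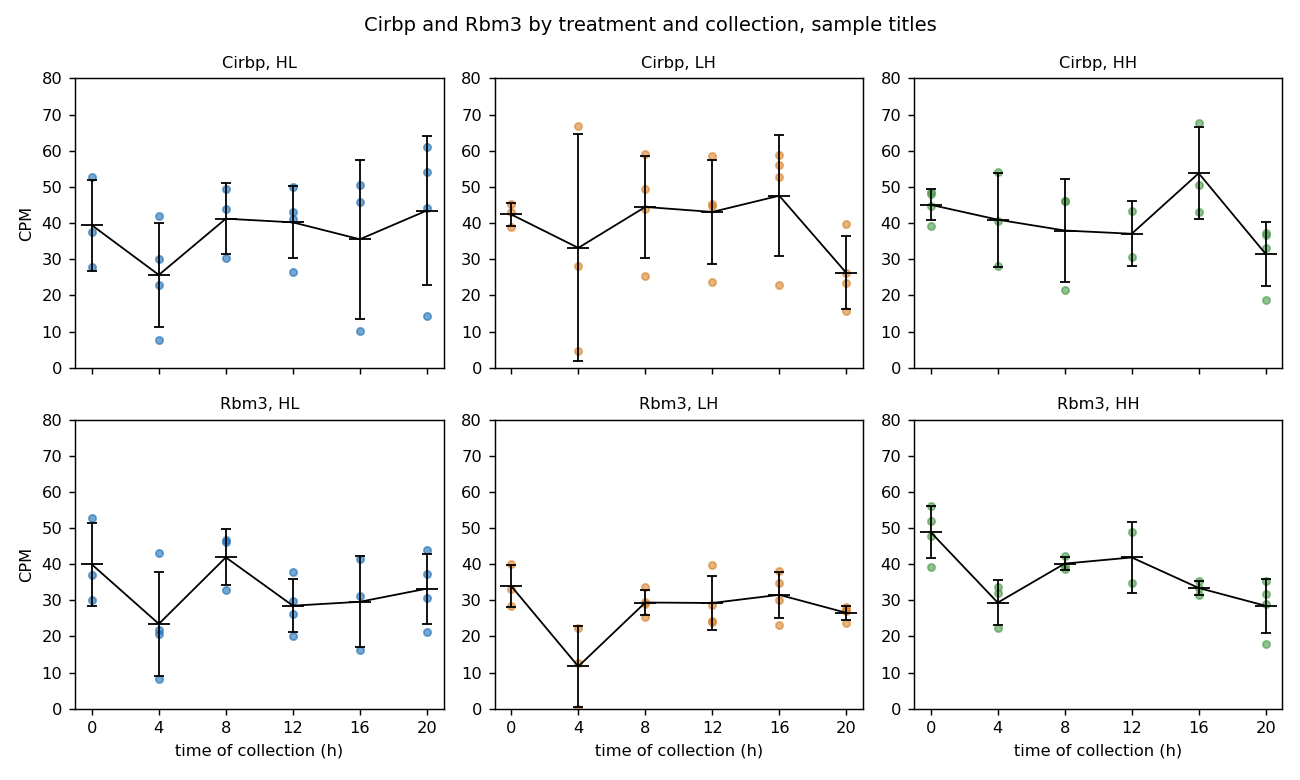
Level of Cirbp (upper row) and Rbm3 (lower row) in CPM against time of collection in hours, by the titles of the samples. Points are libraries and black bars are the mean ± SD of each collection. Libraries of 1 collection often lie as far apart as collections do, and Rbm3 in HH is highest at 0 h (48.8 CPM).

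The next comparison asked whether the levels changed over the 6 collections. In HH, where the assignments agree, Rbm3 had 39.3, 47.9, 52.0 and 56.1 CPM at 0 h and 22.3, 32.0 and 33.8 at 4 h, and these collections did not overlap. Rbm3 then had 38.7, 39.6 and 42.1 CPM at 8 h and 34.8 and 48.9 at 12 h. At 16 h it had 31.5, 33.5 and 35.3 CPM and at 20 h 17.8, 29.0, 31.8 and 35.2. The mean was highest at 0 h (48.8 ± 7.19, n = 4) and lowest at 20 h (28.5 ± 7.54, n = 4), and every library at 0 h was above every library at 20 h. Cirbp in HH had 39.1, 44.7, 48.0 and 48.5 CPM at 0 h, 42.9, 50.6 and 67.8 at 16 h and 18.7, 33.1, 36.7 and 37.3 at 20 h. Its levels at 16 h and 20 h also did not overlap. These pairs of collections were picked after the values were seen and have no test of their own.

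Over the collections no change passed an adjusted p of 0.05 for either gene in any treatment by titles. In the order HL, LH and HH, edgeR's unadjusted p was 0.0631, 0.158 and 0.0857 for Rbm3 and 0.488, 0.0648 and 0.615 for Cirbp. Of all genes 0.301%, 2.93% and 0.293% were called in HL, LH and HH. By library number the p of Rbm3 was 0.197 in HL, 0.0191 in LH (adjusted p = 0.243) and 0.0261 in HH (adjusted p = 0.373), beside 0.394%, 1.05% and 0.803% of genes called by edgeR. The p of Cirbp by number was 0.826, 0.878 and 0.669 in HL, LH and HH. Without replicate 4 of the library numbers Cirbp changed over the collections of HL (edgeR p = 0.000546, adjusted p = 0.0458). With replicate number added as a term, Rbm3 by number passed adjustment over the collections of LH and HH and not of HL. That fit is described under the dependence on processing. By number Rbm3 in LH was highest at 0 h, with 43.1, 46.1 and 46.6 CPM, apart from the lone library at 16 h with 43.9. In HL at 0 h, where titles and numbers agree, Rbm3 had 30.0, 37.1 and 52.6 CPM.

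None of 18 contrasts between collections 12 h apart was called for the 2 genes by titles, and none by number, where 0.657% and 0.354% of all tests were called. The smallest p by titles was in LH at 4 h against 16 h, the contrast that holds the shallow library. The titles give both of these collections the clock hour 12, so the 12 h between them rests on the order of collections. There Cirbp had 4.62, 28.1 and 66.7 CPM at 4 h and 22.8, 52.7, 56.0 and 58.8 at 16 h, a log2 difference of -1.40 (SE 0.533, edgeR adjusted p = 0.0979). Without the shallow library, which leaves 4.62 and 28.1 CPM at 4 h, this contrast of Cirbp was called (-1.64, SE 0.543, edgeR adjusted p = 0.0496). Rbm3 had 0.0, 12.7 and 22.5 CPM at 4 h and 23.3, 30.1, 34.7 and 38.0 at 16 h, a log2 difference of -0.86 (SE 0.34, edgeR adjusted p = 0.108).

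No daily rhythm was found by JTK_CYCLE, the rank test that the study used, at a period of 24 h and a threshold of 0.01. By titles its P was 0.929 for Cirbp in HL and 1.0 for Cirbp in LH and HH and for Rbm3 in each treatment, where 0.82%, 1.53% and 1.99% of genes passed in HL, LH and HH. By number the smallest P of the 2 genes was 0.469, for Cirbp in LH, where 2.14% of genes passed in LH and 1.83% in HL. The clock gene Nr1d1, a repressor of Arntl, passed by titles in all 3 treatments, where its P was 0.000299 (HL), 4.98e-05 (LH) and 3.44e-07 (HH). Dbp, a clock output factor, passed by titles in HL (0.00195) and HH (6.63e-05) and not in LH (0.0286). By number Dbp passed in HL (9.57e-08) and LH (6.61e-05), and Nr1d1 in HL (1.68e-07) and LH (3.51e-05). In HL the JTK P of both clock genes was thus far smaller by number than by titles. At a Benjamini-Hochberg adjusted P under 0.05, 11 genes passed in HL by number and 0 by titles. The rhythms of Cirbp and Rbm3 were not called as different between treatments in edgeR (smallest p 0.457 by titles), where 0.0677% of genes were called for LH against HL, 0.015% for HH against HL and 0.0527% for LH against HH. Of the 22 clock genes tested by titles, 6 changed over the collections in HL, 6 in LH and 9 in HH, beside 0.301%, 2.93% and 0.293% of all genes.

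**Figure D2:**
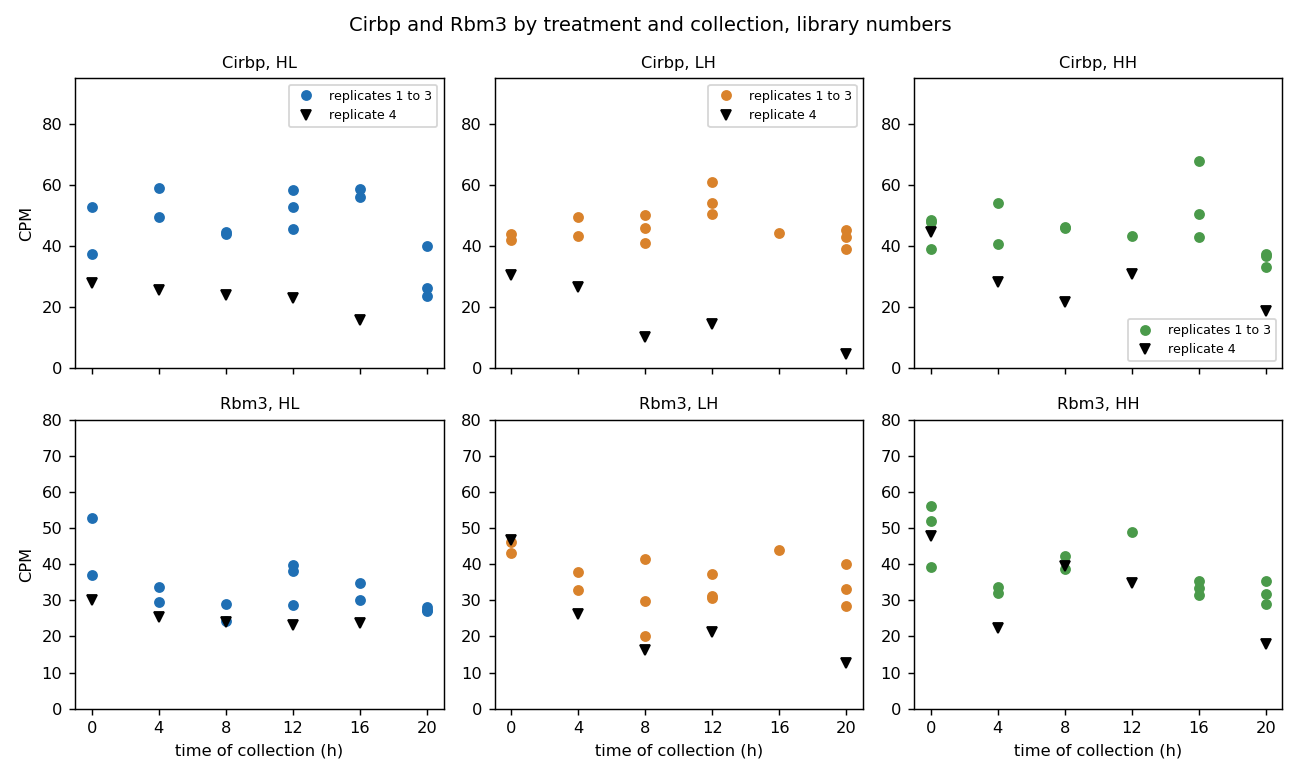
Level of Cirbp (upper row) and Rbm3 (lower row) in CPM against time of collection in hours, by library number. Coloured points are replicates 1 to 3 and black triangles replicate 4, which had the lowest Cirbp in 14 of 15 groups.

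Within groups by library number, both genes differed between replicates, a comparison that was chosen after the values were seen. By the replicate numbers of the titles, the edgeR test over all replicates gave p = 0.631 for Cirbp and 0.528 for Rbm3 and called 0 genes. By library number, replicate 4 had the lowest Cirbp of its treatment and collection in 14 of the 15 groups that hold it with other replicates, and the highest in 0. The exception was HH at 0 h, where replicate 4 had 44.7 CPM and the lowest value was 39.1. Of 13292 genes, 0.873% were lowest in replicate 4 at least as often and 0.978% were highest at least as often. Rbm3 was lowest in replicate 4 in 12 of 15 groups, and 5.15% of genes were lowest there at least as often.

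Cirbp had a median of 23.8 CPM in replicate 4 (4.62 to 44.7, n = 15), against 46.0 in replicate 1 (26.1 to 67.8), 46.9 in replicate 2 (36.7 to 59.0) and 42.9 in replicate 3 (23.4 to 61.1). Replicate 4 overlapped the others at its upper end. Rbm3 had a median of 24.0 CPM in replicate 4 (12.7 to 47.9) against 31.5, 36.2 and 35.3 in replicates 1, 2 and 3. With treatment and collection in the model, Cirbp fell by 1.03 on the log2 scale in replicate 4 (SE 0.116, edgeR adjusted p = 1e-09). Rbm3 fell by 0.42 (SE 0.081, edgeR adjusted p = 7.41e-05). Of all genes, 14.1% were lower and 15.7% higher in replicate 4, so a call alone does not set the 2 genes apart. Because replicate 4 was picked on these values, its p-values make no allowance for that choice. The edgeR test over all 4 replicates by number gave an adjusted p of 1.63e-08 for Cirbp and 0.000754 for Rbm3, in a test that called 21.1% of all genes.

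In HH, where the titles and numbers name the same libraries, Cirbp in replicate 4 had 44.7, 28.1, 21.6, 30.7 and 18.7 CPM at 0, 4, 8, 12 and 20 h. It was the lowest of its collection in 4 of 5. Of 13292 genes, 8.77% were lowest in replicate 4 of HH at least as often. The log2 difference was -0.64 (SE 0.16, edgeR adjusted p = 0.0449), and 0.366% of genes were called lower. The edgeR test over all 4 replicates of HH, which singles out none of them, did not call Cirbp (p = 0.00209, adjusted p = 0.182) or Rbm3 (adjusted p = 0.642), and called 0.529% of all genes. Rbm3 in replicate 4 of HH had 47.9, 22.3, 39.6, 34.8 and 17.8 CPM, lowest in 3 of 5 collections, and 28.1% of genes were lowest there at least as often. Its log2 difference of -0.41 (SE 0.153) was not called (edgeR adjusted p = 0.22). The call of Cirbp in HH was lost without the library marked as removed in the read summary, itself a replicate 4 (-0.57, edgeR adjusted p = 0.112). It was also lost with library totals only (-0.60, edgeR adjusted p = 0.0549) and without replicate 1 (-0.63) or 2 (-0.62).

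By number, Cirbp fell by 1.04 in replicate 4 of HL (SE 0.137, edgeR adjusted p = 2.22e-06) and had a log2 difference of -1.44 in LH (SE 0.229, edgeR adjusted p = 0.000167). Rbm3 fell by 0.40 in HL (edgeR adjusted p = 0.0273) and by 0.46 in LH (edgeR adjusted p = 0.0393). In these treatments 7.15% and 11.8% of genes were called lower. The test over all replicates of 1 treatment called Cirbp in HL (edgeR adjusted p = 7.03e-06) and LH (edgeR adjusted p = 0.00233) and did not call Rbm3 (adjusted p = 0.127 and 0.114), where 11.7% and 11.4% of all genes were called. The difference of Cirbp in replicate 4 was larger in LH than in HH by a log2 value of -0.76 (SE 0.26, edgeR p = 0.00489), which did not pass adjustment (adjusted p = 0.0839). By the replicate numbers in the titles, the log2 difference of replicate 4 was 0.04 for Cirbp and 0.05 for Rbm3, and edgeR called no gene, with 474 genes at an unadjusted p under 0.05.

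The libraries of replicate 4 had 4300324 to 7015044 counts, 18.9% to 28.9% of reads on no feature, 1.53% to 3.34% of counts on mitochondrial genes and 8225 to 9252 genes over 5 CPM. Replicates 1 to 3 had 3391603 to 11619095 counts, 18.7% to 27.8% on no feature, 1.55% to 3.5% mitochondrial and 8626 to 9364 genes over 5 CPM. Total counts of replicate 4 lay within the range of the others, and the other 3 measures reached past it at 1 end. The culture conditions of single replicates, including temperature, are not given in the labels, and their part in the difference was not tested. In these bulk libraries fewer cells with a transcript and less of it per cell cannot be told apart.

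Among heat shock genes, which code for chaperones and their regulators, 12 of 23 rose in replicate 4 by number, 1 fell and the rest were not called, where 15.7% of all genes rose. The list had a median log2 difference of 0.27 against -0.01 over all genes. The largest were Hspa4l (2.38, SE 0.21), Cryab (1.86, SE 0.20) and Hsph1 (1.85, SE 0.18), which code for chaperones, and the inducible Hspa1b (1.19, SE 0.13). In HH alone the same 4 genes rose, with log2 differences of 1.59, 0.82, 1.19 and 0.67, and 0 of 23 fell, while 1.11% of all genes were called higher. The median of the list in HH was 0.08. Hspa8, the constitutive member, was not called in either. Hsp90ab1 fell by 0.19 by number.

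**Figure D3:**
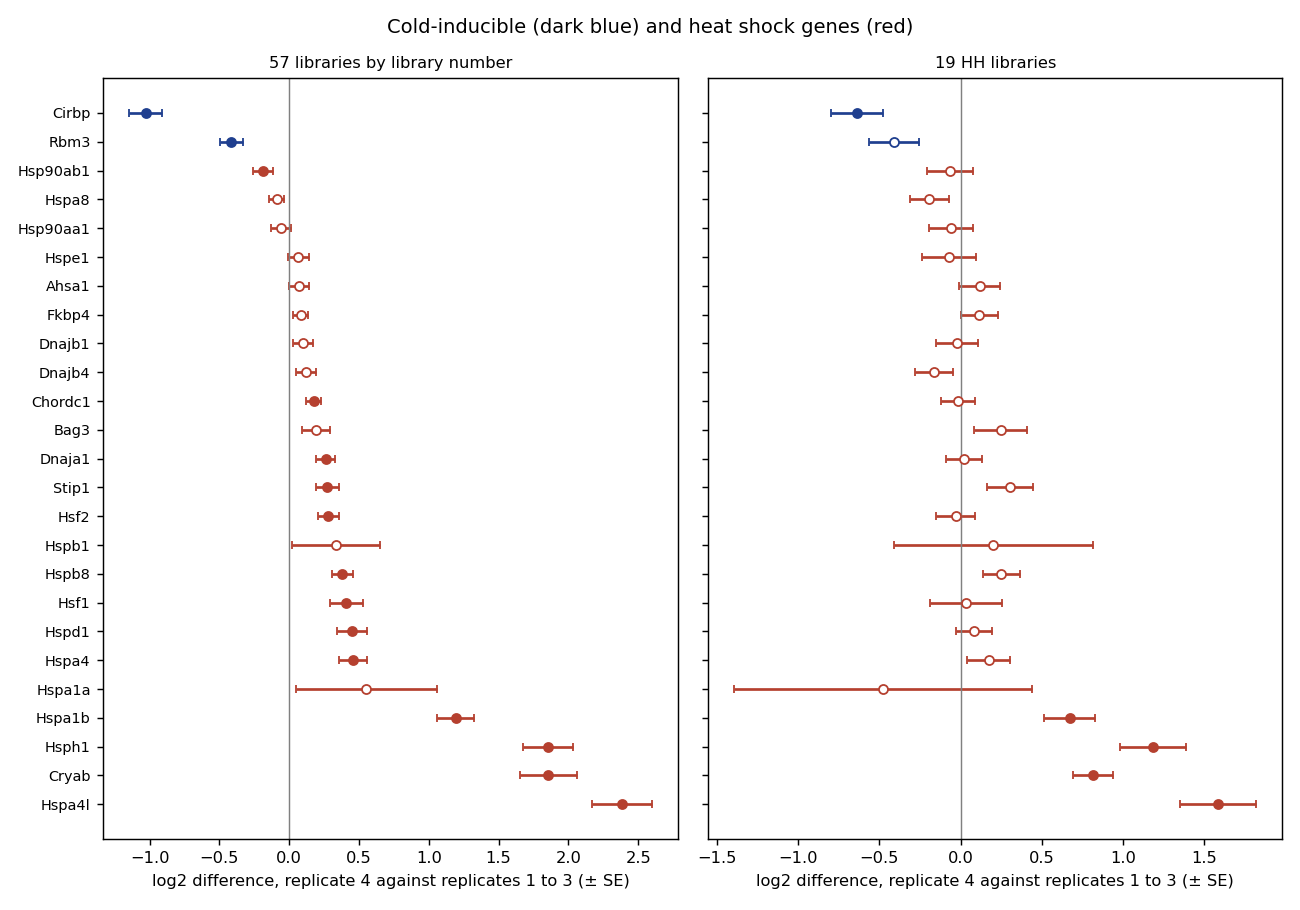
Log2 difference ± SE of replicate 4 against replicates 1 to 3 in edgeR, in 57 libraries by library number (left) and in the 19 HH libraries (right). Filled points passed an adjusted p of 0.05. Cirbp and Rbm3 lie below 0 on both sides, and Hspa4l, Hsph1, Cryab and Hspa1b lie above 0 on both.

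Other lists of RNA-binding proteins were mixed or had few calls. Among the cold shock domain proteins, a family that shares the name but not the fold of Cirbp, Carhsp1 rose by number (0.23), and 0 of the 5 tested in HH were called there. Beside 15.7% of all genes higher and 14.1% lower by number, 4 of 18 glycine-rich relatives rose and 5 fell, among them Rbm10 (-0.64) and Sfpq (0.46). Of 19 splicing kinases and SR proteins, some of them temperature-sensitive, 6 rose and 3 fell. In HH 0 of either group was called. Of 10 reported partners and targets, Rtn3 (0.45), whose translation RBM3 is known to raise, and Tnpo1 (0.40), an import receptor of CIRBP, rose by number, and Clock was not called.

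The same background of 15.7% higher and 14.1% lower applies to clock, glucose and cell type genes. Of 21 clock genes 6 rose and 3 fell by number, and Rora (0.64) and Hlf (1.18) rose in HH as well. The glucose-responsive Txnip fell by 0.64 and Arrdc4 by 1.24 by number. Of 12 fibroblast markers 7 fell and 2 rose by number, 0 in HH, with sums of 23700 to 44400 CPM in replicate 4 and 22200 to 44200 in the others. The endothelial marker Kdr fell by 0.68 and the leukocyte markers Csf1r (0.82) and Itgam (1.49) rose. Leukocyte markers summed to 6.86 to 30.7 CPM in replicate 4 and 5.3 to 18.2 in the others, and muscle markers to at most 1.13. The part of these genes in the result was not tested.

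The pathway lists were also counted between treatments. By titles 0 heat shock genes were called in the 3 comparisons. By number 4 of 23 were higher in LH than in HL and 4 of 23 in LH than in HH, where 1.34% and 1.63% of all genes were called. Among them Hspa4l had a log2 difference of 1.40 (SE 0.439) in LH against HH, where Cirbp had -0.01 (SE 0.174).

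Cirbp and Rbm3 varied together over the 62 libraries by rank (log2 of CPM + 0.5 after TMM scaling). Spearman's rho was 0.456 (permutation p = 0.00022) and Pearson's r was 0.204 (permutation p = 0.0896). Without the shallow library they were 0.523 (permutation p = 4e-05) and 0.665 (permutation p = 1e-05, the smallest the permutations can give), so r rests on 1 library. Without the 2 libraries farthest from the median of Cirbp, rho was 0.406 and r was 0.094 (permutation p = 0.00126 and 0.474). Within treatments by titles rho was 0.497 (HL), 0.548 (LH) and 0.423 (HH) (permutation p = 0.0236, 0.00928 and 0.073). After removal of group means rho was 0.394 by titles (n = 62) and 0.611 by library number (n = 57), and r was -0.04 (permutation p = 0.713) and 0.724 (permutation p = 1e-05). The set by titles holds the shallow library and the set by number does not. By number rho was 0.702 in HL and 0.389 in LH (permutation p = 0.00117 and 0.102). Without replicate 4 of the library numbers, over 47 libraries, rho was 0.255 (permutation p = 0.0832).

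**Figure D4:**
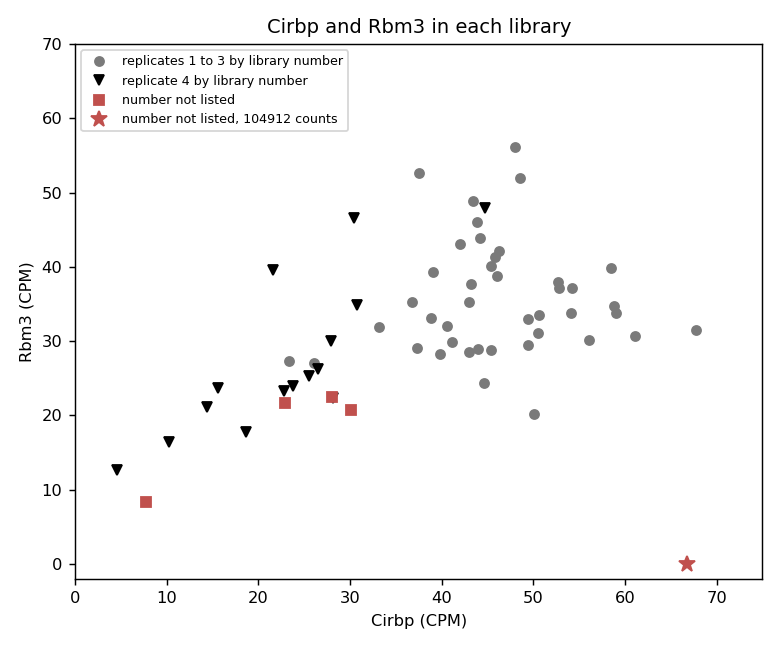
Level of Rbm3 against level of Cirbp, both in CPM, with 1 point for each of the 62 libraries. Replicate 4 by library number (triangles) lies mostly at low Cirbp, and the star is the shallow library, which had 0 counts of Rbm3.

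The genes most like Cirbp over the 62 libraries, by Spearman's rho among 5926 genes with a mean of at least 20 CPM, were Actb (0.81), Synpo (0.80), Osr1 (0.79), Mef2c (0.76) and Plekha2 (0.75). Actb codes for beta-actin and Synpo for an actin-binding protein. The genes most opposed were Cab39l (-0.78), Ntrk3 (-0.77) and Nudt3 (-0.77). Without replicate 4 of the library numbers, Actb kept a rho of 0.69 with Cirbp. Rbm3 was most like Flna (0.68), Tagln (0.68), Gap43 (0.67), Ccnd2 (0.67) and Cavin1 (0.67), and most opposed to Vasn (-0.76), Stc1 (-0.71) and Bpgm (-0.71). The libraries share replicates and depth, so these values are descriptions. Heat shock genes had a median rho of -0.31 with Cirbp (3 of 20 above 0) and -0.20 with Rbm3, against -0.02 and 0.0 for all genes. The lowest were Cryab with Cirbp (-0.76) and Hspa1b with Rbm3 (-0.70). Without replicate 4 the medians were -0.16 and -0.15. Over the 62 libraries fibroblast markers stood farther from all genes, with a median rho of 0.40 with Cirbp (9 of 11 above 0) and 0.25 with Rbm3. Without replicate 4 their medians were 0.19 and 0.27. In HH the medians with Cirbp and Rbm3 were 0.30 and -0.02 for fibroblast markers and -0.28 and -0.15 for heat shock genes. For all genes they were -0.02 and -0.01 there.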

How the data were processed

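Total RNA was sequenced by 3′DGE, in which reads come from the 3′ end of transcripts, so that counts do not grow with transcript length. Per the submitters' processing notes, bcl2fastq, STAR 2.6.0a, HTSeq 0.9.1 and mm10 were used, and the authors deposited raw counts per gene for 121 sets, 1 for each sequencing run. The sources used here give neither annotation release nor strand setting. Closing lines naming no gene were left out (18.4% to 29.1% of reads on no feature, 0.288% to 0.459% ambiguous). Of 31053 identifiers 30934 matched GENCODE M21. Runs were summed, and CPM is the count divided by the library total, times 1000000. Promoter sequence is from RefSeq.

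Genes reaching 1 CPM in 3 or more libraries entered edgeR 4.0.16 (quasi-likelihood, TMM, R 4.3.3), all treatments in 1 model. Levels had collection as a term, and SEs were derived from the log2 difference and the F statistic. JTK_CYCLE was rewritten with the exact null of its statistic, ties of the reference kept, and correction over phases but not genes. DESeq2 1.42.0 was an alternative. Replicate 4 was compared with treatment and collection in the model. Permutation tests of correlations used 100000 arrangements. Intervals and zero limits cover counting error only. Scripts were tested on simulated data first. The members and gene lists were chosen with earlier results of these data known. Named genes are the 2 members, the 5 most and 3 least similar genes, list members with a call or among the highest levels, and Nr1d1, Dbp and Txnip. Some genes of the lists are not reported here. Alternatives were library numbers, single runs, other scaling and filters, left-out libraries and replicates, DESeq2 and a replicate block.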

Additional observations from a re-analysis of the deposited data

Results flagged for a closer look

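Of the values checked, 3 stood apart by fixed rules. For 2 of them the rule was Dixon's ratio, in 26 tests of groups of 4 libraries, where chance flags about 1 of 20. Each group was tested for both genes, and the groups by titles and by number share libraries. By titles, Cirbp in LH collection 5 replicate 2 had 22.8 CPM, where the other 3 libraries had 52.7 to 58.8. Its library number makes it replicate 4 of HL collection 4. By library number, Cirbp in LH collection 6 replicate 4 had 4.62 CPM from 20 counts (95% exact interval 2.82 to 7.13), where the others had 38.9 to 45.3. The titles call this library LH collection 2 replicate 1. The difference of Cirbp in replicate 4 was larger in LH than in HH by a log2 value of -0.76 (edgeR interaction p = 0.00489, adjusted p = 0.0839).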

How the results depend on the processing

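Of 709 values recomputed for 31 results under 40 settings, 661 kept their side of the threshold, and their direction where the result has a sign. Results given as a p-value or a count of calls have no direction. The 661 include values that could not change. JTK was run on each treatment separately, so leaving out a replicate of another treatment left its P as it was. For Cirbp in HL it stayed at 0.929 in those settings. Settings that changed only the rule for a call reused the same estimates. The 2 genes had few calls, and the level differences of Cirbp lie near 0, so 11 of its signs turned. LH against HL became 0.04 by library number, 0.003 with a replicate block by number, 0.02 without a term for collection and 0.08 by number without replicate 4, and -0.12 to 0.01 when a replicate was left out by titles. HH against HL became -0.0026 and LH against HH 0.08 by number without replicate 4, and HH against HL was -0.06 to 0.24 with a replicate left out. Rbm3 in LH against HL became 0.13 by number, 0.13 by number with the replicate block and 0.16 by number without replicate 4, and stayed at -0.23 with the block by titles. By titles it passed the rule with DESeq2 (-0.24) and with genes of any count (-0.24), and was -0.30 to -0.16 with a replicate left out, passing in 3 of 12 cases. Rbm3 in HH against HL passed in the second run alone (0.27). Rbm3 in LH against HH passed with DESeq2 (-0.37), the second run alone (-0.41), without the libraries marked removed (-0.39) and with genes of any count (-0.37), and was -0.43 to -0.30 with a replicate left out, passing in 4 of 12.

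The change of Cirbp over collections passed adjustment in HL by number without replicate 4 (p = 0.000546), and in LH in the second run alone (p = 0.00039) and with genes of any count (p = 7.98e-07). Of the 12 h contrasts 1 was called for Cirbp at an unadjusted p, in the second run alone, without libraries under 1000000 counts and with genes of any count, and 0 to 1 with a replicate left out, against 1 for Rbm3 at an unadjusted p and with genes of any count. The difference of replicate 4 turned to 0.04 for Cirbp and 0.05 for Rbm3 by the replicate numbers of the titles. For Cirbp in HH it was no longer called without the libraries marked removed (-0.57) or with library totals only (-0.60), and was -0.68 to -0.62 with a replicate left out. The rank correlation fell to 0.255 without replicate 4 of the library numbers, was 0.428 to 0.489 with a titled replicate left out, and Pearson's r was 0.204. The cause of these changes was not tested.

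Same-numbered libraries of different groups did not always deviate together. By number 67.9% of 365 pairs correlated above 0.1 (median 0.197), and 32 of 56 libraries were nearest to their own number, and by titles 30.8% of 438 pairs did. Replicate 4 by number stood out, with 94.3% of 105 pairs above 0.1 (median 0.38). Pairs of different numbers had a median of -0.045. The rule for pairs asked that every same-numbered pair exceed 0.1, which was not met, so the main fits hold no replicate term. Deviations that same-numbered libraries share thus stay in the spread of those fits. With the replicate block by number, Rbm3 passed adjustment over collections in LH (p = 0.000769, adjusted p = 0.0313 in edgeR) and HH (p = 0.000415, adjusted p = 0.0276), and with the block by titles no call of either gene changed. Depth limits the shallow library, where 3 counts equal 28.6 CPM.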
